A study of Mus musculus with 4 samples.

Results

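DEAD box and DEAH box RNA helicases, the Ddx and Dhx genes, were followed in RNA recovered with FLAG-tagged NANOS2 from mouse testis. The members were all genes whose symbol starts with Ddx or Dhx and a number, with Ddx4 and Ddx6 left out. The RefSeq gene table holds 51 such genes, and 45 of them, 29 Ddx and 16 Dhx, had a probe on the array, among 21594 tested features in all. Ddx10, Ddx23, Ddx27, Ddx43, Ddx46 and Ddx60 could not be linked to a probe and are not analysed here. All 45 were well above background on all 4 arrays, so each member was measured in both groups.

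The FLAG IP group holds 2 arrays of RNA from FLAG immunoprecipitates, and the Input group holds 2 arrays of the starting RNA. Both groups came from testes of male mice at postnatal day 7 that carry the transgene Tg-Nanos2 enhancer-3xFLAG-Nanos2-3'UTR, in which a Nanos2 enhancer drives FLAG-tagged NANOS2 with the 3′ untranslated region of Nanos2. The duplicates are biological per the series' design text, and the labels name no animals and do not say whether testes were pooled. RNA was hybridised to single-colour Agilent mouse arrays, and no FLAG IP from testis without the transgene was analysed here, so a change says that a transcript made up more or less of the precipitated RNA and does not by itself show binding to NANOS2.

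RNA helicases of these families use ATP to pull short RNA duplexes apart or to strip proteins from RNA. They are named after the amino acids Asp-Glu-Ala-Asp or Asp-Glu-Ala-His in the motif that binds ATP, although some genes with a Ddx symbol carry a variant of it. DEAD box proteins mostly clamp RNA locally in ribosome assembly, export and translation, whereas DEAH box proteins move along RNA and include the helicases that remodel the spliceosome. NANOS2 binds RNA in male germ cells, where it represses and destabilises mRNAs, and setting FLAG IP against Input addresses which mRNAs associate with it in the postnatal testis.

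A level is the log2 signal of a gene's probe, with the array's 75th percentile set to 0. A change is the mean level in FLAG IP minus that in Input. Its standard error (SE) is moderated by limma, which draws a gene's spread over 2 arrays per group toward that of all tested features. A transcript is called when its adjusted p over all tested features is under 0.05. At the 75th percentile the linear signal was 1019 and 1267 on the FLAG IP arrays and 1474 and 1676 on the Input arrays, and 66.3% to 68.4% of probes per array stood well above background. The number of arrays limits the precision, and p-values set a change against limma's moderated spread between these samples. As a check of the tissue, all 9 germ cell markers with a probe were well above background on every array, 2 were called higher and 0 lower (0 with a negative change at an unadjusted p under 0.05), and their summed linear signal was 147 and 189 times the 75th percentile in FLAG IP and 144 to 157 times in Input. Of the markers of other cells, 6 of 8 tested Sertoli, 4 of 7 Leydig, 3 of 6 peritubular myoid, 4 of 4 macrophage and 2 of 3 red cell markers were called lower in FLAG IP. The Leydig calls include Lhcgr, which was well above background in Input only. Lhcgr was thus tested only through the group where it is higher, and its call adds no support. Limma called 0 of 6 endothelial markers, of which 2 had a negative change at an unadjusted p under 0.05. The summed Sertoli signal was 28.7 on both FLAG IP arrays and 49.3 to 49.9 in Input, with no marker of that list below background. The summed macrophage signal was 1.11 and 1.24 in FLAG IP, against 2.67 and 2.74 in Input, and that of Leydig cells was 13.7 and 17.6 in FLAG IP, where Lhcgr was not well above background, against 38.4 and 29.0 in Input. The summed signal of myoid markers was 71.5 and 73.4 in FLAG IP and 108 to 121 in Input, that of endothelial markers 1.23 to 1.70 in FLAG IP and 1.57 to 2.24 in Input, and that of red cell markers 23.0 and 28.8 in FLAG IP and 44.2 to 67.9 in Input. The part of these shifts in the helicase changes was not tested. A lower marker says that its RNA made up less of the precipitated RNA than of Input. In Input, which is bulk RNA, the number of cells of a type and the RNA per cell cannot be told apart.

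For most helicase transcripts no difference between FLAG IP and Input passed the test. Of the 45 members 12 were called, against 37.1% of all tested features. In detail 5 were higher in FLAG IP (Ddx21, Ddx3y, Dhx36, Ddx28 and Dhx58), 7 were lower (Ddx59, Dhx34, Dhx9, Ddx18, Dhx16, Ddx39b and Ddx50), and 33 were not called. These are 11.1% and 15.6% of the members, where 15.8% of all tested features were called higher and 21.3% were called lower. Among tested features with a gene symbol the shares were 16.2% and 18.9%. Apart by family, 3 of 29 Ddx genes were higher and 4 lower, and 2 of 16 Dhx genes were higher and 3 lower. The median change was −0.10 for Ddx and −0.15 for Dhx, and −0.15 over all tested features. Both medians thus lay within 0.05 of that of all features. Under normexp background correction, which moved the median of all features to 0.00, the families had −0.11 and −0.14. The difference between the families was not tested.

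The quartiles of the members' changes were −0.32 and 0.04, and those of all tested features were −0.58 and 0.37. The extremes were −0.78 and 1.39 in Ddx and −0.68 and 1.12 in Dhx. Over all tested features 9.29% were called higher and 8.65% called lower by 2-fold or more, whereas among the members 3 were called higher by that much (Ddx21, Ddx3y and Dhx36) and 0 were called lower. For 32 of the 33 members that were not called, the 95% interval of the brightest probe's change lay inside a 2-fold change in either direction. The exception was Ddx11, whose interval reached 1.06. This does not hold for every dimmer probe, among them those of Ddx24 (−0.77 ± 0.21, called lower) and Ddx56 (0.71 ± 0.44, not called). In 8 members both FLAG IP arrays lay above both Input arrays, against 29.8% of all features, and in 21 they lay below, against 44.7%.

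**Figure D1:**
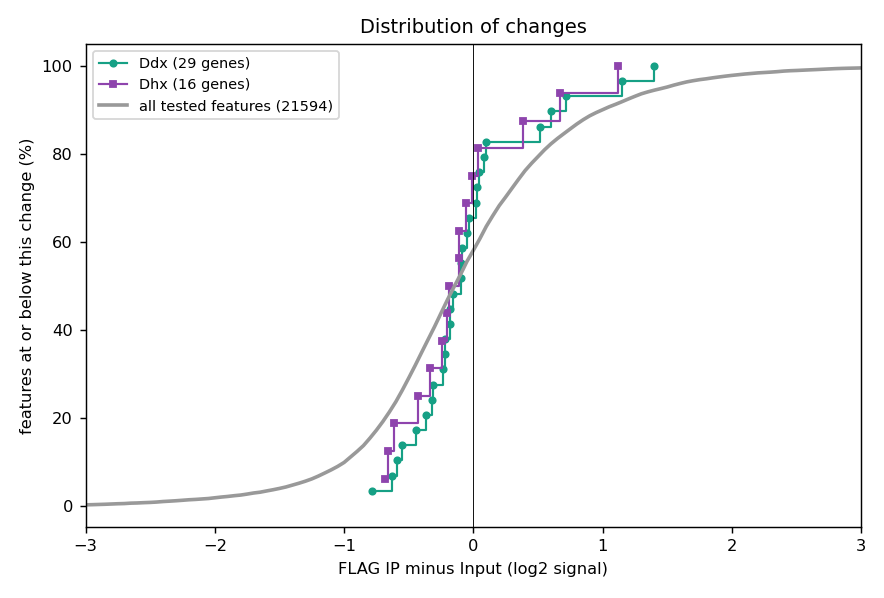
Cumulative distribution of the change (x axis, FLAG IP minus Input, log2 signal) for 29 Ddx genes, 16 Dhx genes and all 21594 tested features, with the percentage of features at or below each change on the y axis. Both families cross the middle of the y axis near the curve of all features and are steeper than it, with changes from −0.78 to 1.39 for Ddx and from −0.68 to 1.12 for Dhx.

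The 12 calls were lost without either Input array. Without Input replicate 1 none of the 12 was called (adjusted p between 0.057 and 0.25 in limma), and without Input replicate 2 none was called either (adjusted p between 0.060 and 0.22), while in both cases all 12 kept their direction. Calls over all tested features also fell, to 1684 without Input replicate 1 and 1562 without Input replicate 2, against 8010 with all arrays. Without FLAG IP replicate 1 the 5 members still called were Ddx21, Ddx3y, Ddx59, Dhx34 and Dhx36, and without FLAG IP replicate 2 all 12 were. Directions given here are relative to the other transcripts of an array. Scaled to spike-in control spots instead, the median change of all tested features was −1.12, that of Ddx was −1.07 and that of Dhx was −1.12. On that scale Ddx21 (0.42, adjusted p = 0.35), Ddx3y (0.18, adjusted p = 0.70) and Dhx36 (0.15, adjusted p = 0.75) were not called, and Ddx28 (−0.26) and Dhx58 (−0.30) had negative changes.

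**Figure D2:**
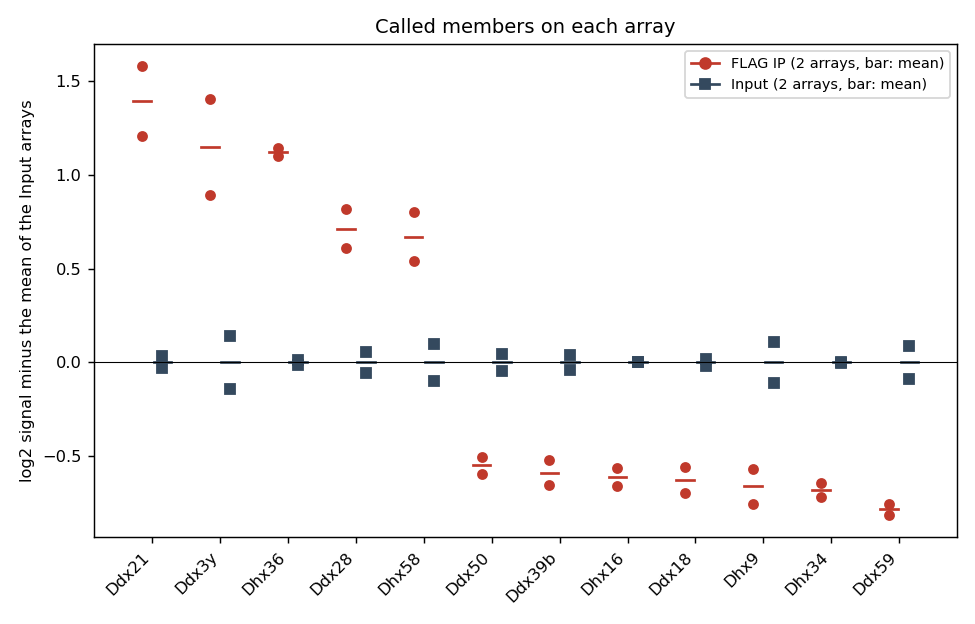
Each of the 12 called members on each array, as log2 signal minus the mean of the Input arrays (y axis), with FLAG IP as circles on the left and Input as squares on the right of each gene and bars at the group means. FLAG IP and Input do not overlap for any of the 12, with mean changes from 1.39 for Ddx21 to −0.78 for Ddx59. Under spike-in scaling the changes of Ddx28 and Dhx58 have the opposite sign.

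Among the helicases of mRNA export, translation and decay, 2 of 9 were higher, 1 was lower and the other 6 did not pass the test, where 15.8% of all tested features were higher and 21.3% lower. Ddx3y, the Y-linked copy of a DEAD box helicase that helps ribosomes scan structured leaders, had levels of 1.05 and 0.54 in FLAG IP, against −0.50 and −0.21 in Input. Both FLAG IP arrays lay above both Input arrays, and the change of 1.15 ± 0.23 (SE) was a 2.22-fold increase (adjusted p = 0.023). Testing without a filter on dim probes ended this call (adjusted p = 0.060). Its X-linked partner Ddx3x had levels of 1.58 and 1.72 in FLAG IP and 1.03 and 1.24 in Input. The groups did not overlap for Ddx3x either, but its change of 0.51 ± 0.15 was not called (adjusted p = 0.058, 95% interval 0.11 to 0.92). It was called when only features well above background on all 4 arrays were tested (adjusted p = 0.049). It was also called under normexp background correction (adjusted p = 0.031) and with trend and robust moderation (adjusted p = 0.029). Under spike-in scaling Ddx3x had −0.46. The dimmer probe of Ddx3x had −0.44 ± 0.32 and was not called (adjusted p = 0.33 over all probes).

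Another Ddx3 relative, D1Pas1, an autosomal copy expressed in male germ cells, is no member by its name. It had levels of 2.44 and 1.97 in FLAG IP, against −0.74 and −0.51 in Input, a 7.11-fold increase (2.83 ± 0.22, adjusted p = 0.0042). The other probe of D1Pas1 had a change of 1.42 ± 0.15 (adjusted p = 0.0067 over all probes). The intervals of Ddx3y (0.54 to 1.76) and Ddx3x overlap, and the differences among the 3 changes were not tested. The copies are closely similar in sequence, and how far their probes cross-hybridise was not tested.

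**Figure D3:**
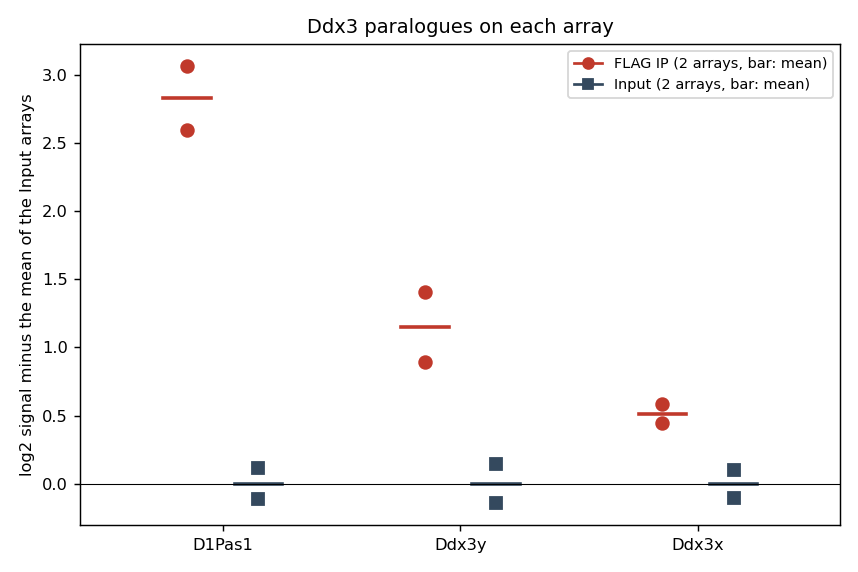
D1Pas1, Ddx3y and Ddx3x on each array, as log2 signal minus the mean of the Input arrays (y axis), with FLAG IP as circles and Input as squares and bars at the group means. FLAG IP lies above Input for all 3 genes on the brightest probe, with mean changes of 2.83, 1.15 and 0.51. The change of Ddx3x was not called and is −0.46 under spike-in scaling. The dimmer probe of Ddx3x, not drawn, had −0.44 ± 0.32.

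Dhx36, a DEAH box helicase that unwinds G-quadruplexes in RNA and DNA, had levels of 2.07 and 2.11 in FLAG IP, against 0.96 and 0.98 in Input. The arrays of each group nearly coincided, and the increase was 2.18-fold (1.12 ± 0.13, adjusted p = 0.0077), the smallest adjusted p among the members. This rests on the brighter of its probes, since the other probe had a change of −0.15 ± 0.30 (adjusted p = 0.71 over all probes) and the mean of both was not called (0.48, adjusted p = 0.10). Dhx34, which acts with UPF1 in nonsense-mediated decay, had levels of 0.31 and 0.39 in FLAG IP, against 1.03 and 1.03 in Input. It fell by 0.68 ± 0.13 (adjusted p = 0.021), a 1.60-fold decrease, with both FLAG IP arrays below Input.

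Dhx29, which helps the small ribosomal subunit through structured leaders, had levels of −2.20 and −2.24 in FLAG IP and −2.11 and −2.11 in Input, a change of −0.11 ± 0.13 that was not called (adjusted p = 0.54). Ddx25, a testis helicase regulated by gonadotropin, had levels of 1.97 and 2.21 in FLAG IP and 2.43 and 2.39 in Input. Its FLAG IP arrays lay below Input, but the change of −0.32 ± 0.15 was not called (adjusted p = 0.16). The export helicases Ddx19a and Ddx19b release proteins from mRNA at the cytoplasmic face of the nuclear pore. Their brightest probes had changes of −0.10 and 0.09 with overlapping groups, and Ddx19b had −0.89 under spike-in scaling. The dimmer probe of Ddx19b had 0.70 ± 0.20 with no overlap and was not called (adjusted p = 0.052 over all probes). That of Ddx19a had 0.09 ± 0.17 (adjusted p = 0.70). Dhx57, whose role is less clear, had a change of −0.43 ± 0.17 (adjusted p = 0.10).

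Helicases of ribosome assembly in the nucleolus were the most numerous group, with 1 of 14 higher, 2 lower, 11 not called and a median change of −0.11. These are 7.14% and 14.3% of the group, beside 15.8% and 21.3% of all tested features. Ddx21, which acts in rRNA processing and in transcription, had the largest change of all members. Its levels were 1.72 and 2.09 in FLAG IP, against 0.54 and 0.48 in Input, a 2.63-fold increase (1.39 ± 0.18, adjusted p = 0.0090). Its close paralogue Ddx50 had levels of 1.93 and 2.02 in FLAG IP, against 2.57 and 2.48 in Input. Ddx50 fell by 0.55 ± 0.14 (adjusted p = 0.038), a 1.46-fold decrease, and without a filter on dim probes it was not called (adjusted p = 0.055). The 95% intervals of the paralogues, 0.92 to 1.87 for Ddx21 and −0.91 to −0.19 for Ddx50, lay on opposite sides of 0.

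Ddx18, the mouse counterpart of a yeast helicase of ribosome assembly, had levels of 1.38 and 1.52 in FLAG IP, against 2.09 and 2.06 in Input. It fell by 0.63 ± 0.14 (adjusted p = 0.028), a 1.55-fold decrease. The other 11 of this group had changes between −0.44 for Ddx55 and 0.05 for Ddx52. Ddx54 had a change of −0.37 ± 0.13 (adjusted p = 0.092) and was called lower with trend and robust moderation (adjusted p = 0.038). On their brightest probes Ddx24, Ddx31, Ddx47, Ddx52, Dhx33 and Dhx37 each had a change of under 0.05 either way. The dimmer probe of Ddx24 was called lower, at −0.77 ± 0.21 (adjusted p = 0.047 over all probes). Ddx49, Ddx51 and Ddx56 had −0.18, −0.23 and −0.22. The dimmer probe of Ddx56, well above background on 3 arrays, had 0.71 ± 0.44 and was not called (adjusted p = 0.25 over all probes).

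Of the spliceosomal helicases and the related DEAH proteins counted with them, 0 of 11 were higher, 2 were lower and 9 were not called, with a median of −0.18. Over all tested features 15.8% were higher and 21.3% lower, so that the 18.2% called lower here is near the background. On the brightest probes limma gave 0 of them a positive change with an unadjusted p under 0.05. Dhx16, which drives the spliceosome into its catalytic form, had levels of 2.46 and 2.56 in FLAG IP, against 3.12 and 3.12 in Input. It fell by 0.61 ± 0.14 (adjusted p = 0.028), a 1.53-fold decrease. Ddx39b, which works early in spliceosome assembly and loads export factors onto mRNA, had levels of 3.44 and 3.57 in FLAG IP, against 4.13 and 4.05 in Input. It fell by 0.59 ± 0.14 (adjusted p = 0.034), and was not called under quantile normalization (−0.39, adjusted p = 0.072) or without a filter on dim probes (adjusted p = 0.053). Its paralogue Ddx39a, at −0.18 ± 0.15, was not called (adjusted p = 0.37).

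Dhx15, which takes spent spliceosomes apart and also acts in ribosome assembly, had levels of 2.72 and 3.25 in FLAG IP and 3.21 and 3.16 in Input. The groups overlapped, the change was −0.20 ± 0.22 (adjusted p = 0.49) and its other probe gave −0.16. Dhx38 and Dhx8, which act in the later catalytic steps and in mRNA release, had −0.19 and −0.06. The dimmer probe of Dhx38 went the other way, at 0.52 ± 0.17, and was not called (adjusted p = 0.068 over all probes). Ddx41, Ddx42 and Dhx35 had −0.09, −0.05 and −0.11, and Dhx32 had −0.34. Dhx40, at 0.39 ± 0.18 (adjusted p = 0.14), had the only positive change of this group, and −0.59 under spike-in scaling.

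Of the 5 helicases of transcription, small RNA processing and RNP assembly 1 was lower, 0 were higher (0 with a positive change at an unadjusted p under 0.05 in limma) and 4 were not called, beside 15.8% higher and 21.3% lower over all tested features. Dhx9, known as RNA helicase A, had levels of 3.39 and 3.58 in FLAG IP, against 4.04 and 4.26 in Input. It fell by 0.66 ± 0.16 (adjusted p = 0.035), a 1.58-fold decrease that was not called under quantile normalization (−0.47, adjusted p = 0.080) or without a filter on dim probes (adjusted p = 0.065). The paralogues Ddx5 and Ddx17, coactivators that also take part in microRNA processing, were not called. Ddx5 had levels of 4.67 and 5.21 in FLAG IP and 5.18 and 4.90 in Input, and Ddx17 had 4.96 and 5.16 in FLAG IP and 5.36 and 5.20 in Input. The groups overlapped for Ddx5, and for Ddx17 both FLAG IP arrays lay below both Input arrays. Their changes were −0.09 ± 0.24 and −0.22 ± 0.16 (adjusted p = 0.77 and 0.31), and 0.30 and 0.15 under quantile normalization. Ddx1, of the tRNA ligase complex, had −0.16, and Ddx20, the Gemin3 subunit of the complex that builds spliceosomal snRNPs, had −0.31 ± 0.14 (adjusted p = 0.15).

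The remaining 6 members cover immune sensing, mitochondria and other roles, with 2 called higher and 1 lower, too few to set against the 15.8% and 21.3% of all tested features. Dhx58, which encodes LGP2, a regulator of RNA sensing, had levels of −1.88 and −2.14 in FLAG IP, against −2.77 and −2.58 in Input. It rose by 0.67 ± 0.17 (adjusted p = 0.038), a 1.59-fold increase with no overlap, though it had −0.30 under spike-in scaling and was not called without a filter on dim probes (adjusted p = 0.071). Ddx58, which encodes the RNA sensor RIG-I, had levels of −4.10 and −4.58 in FLAG IP and −4.60 and −4.29 in Input. Those groups overlapped, with a change of 0.10 ± 0.23 (adjusted p = 0.75). The macrophage markers, from cells that can express such sensors, had lower summed signals on the same FLAG IP arrays, as given above. Their part in the changes of Dhx58 and Ddx58 was not tested.

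Ddx28, a mitochondrial helicase of ribosome assembly in that organelle, had levels of 0.73 and 0.52 in FLAG IP, against −0.03 and −0.14 in Input. It rose by 0.71 ± 0.15 (adjusted p = 0.026), a 1.64-fold increase, and had −0.26 under spike-in scaling. Dhx30, which also acts in mitochondrial ribosome assembly, had −0.24 ± 0.13 and was not called (adjusted p = 0.20). Ddx59, a helicase linked to ciliary signalling, had levels of −0.77 and −0.83 in FLAG IP, against 0.07 and −0.10 in Input. It fell by 0.78 ± 0.14 (adjusted p = 0.019), a 1.72-fold decrease and the largest among the members. Ddx11, a DNA helicase of sister chromatid cohesion despite its symbol, had 0.60 ± 0.18 with no overlap and was not called (adjusted p = 0.054). It was called when only features well above background on all 4 arrays were tested (adjusted p = 0.045), with trend and robust moderation (adjusted p = 0.046) and without FLAG IP replicate 1 (0.76, adjusted p = 0.037), and had −0.37 under spike-in scaling.

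**Figure D4:**
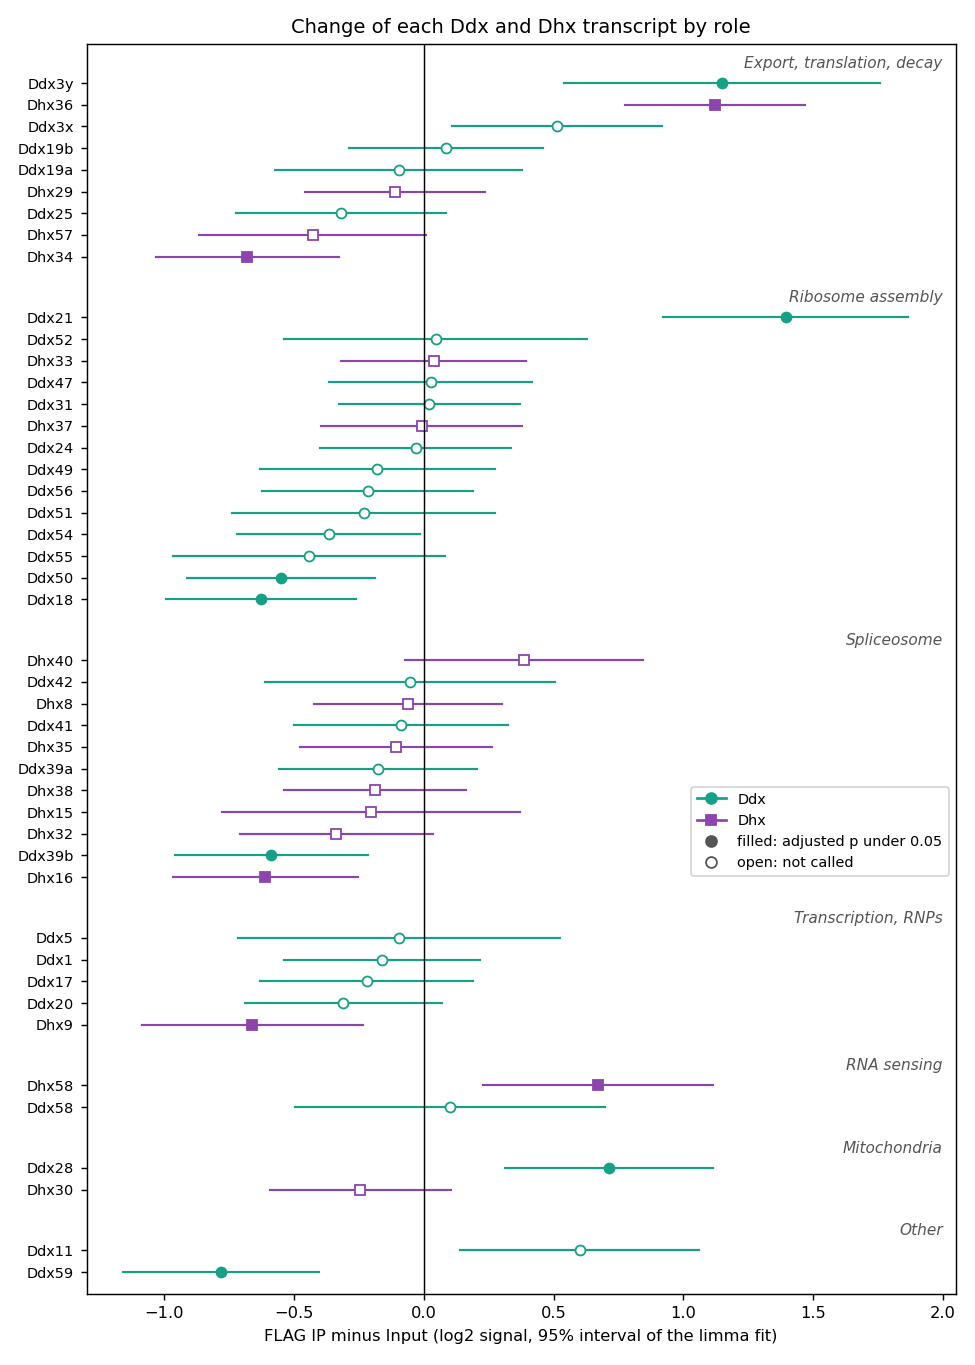
Change of each of the 45 members (x axis, FLAG IP minus Input, log2 signal, with the 95% interval of the limma fit) in groups by role, with Ddx as circles, Dhx as squares and filled symbols for an adjusted p under 0.05. The 5 filled symbols right of 0 are Ddx3y, Dhx36, Ddx21, Dhx58 and Ddx28, of which Dhx58 and Ddx28 change sign under spike-in scaling, and the 7 left of 0 lie between −0.55 and −0.78.

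Where a member had more than 1 probe, the change was also taken per probe. Of 19 members with more than 1 tested probe, 2 had all probes called in the same direction, 4 had some probes called, 13 had none called and 0 were called in opposite directions by limma over all probes. Ddx39b (−0.59 and −0.71) and Dhx16 (−0.61 and −0.86) were lower on both probes. Ddx21 was higher on 2 probes (adjusted p = 0.0093 and 0.0096) and had 0.39 on the other (adjusted p = 0.52). Dhx34 was lower on 2 probes (−0.68 and −0.67) and had −0.26 on the other (adjusted p = 0.28). Ddx24 had −0.03 on its brightest probe and was lower on the other, at −0.77 ± 0.21 (adjusted p = 0.047). Ddx3x had 0.51 on its brightest probe and −0.44 ± 0.32 on the other (adjusted p = 0.33), and all probes of a member had the same sign in 12 of the 19.

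**Figure D5:**
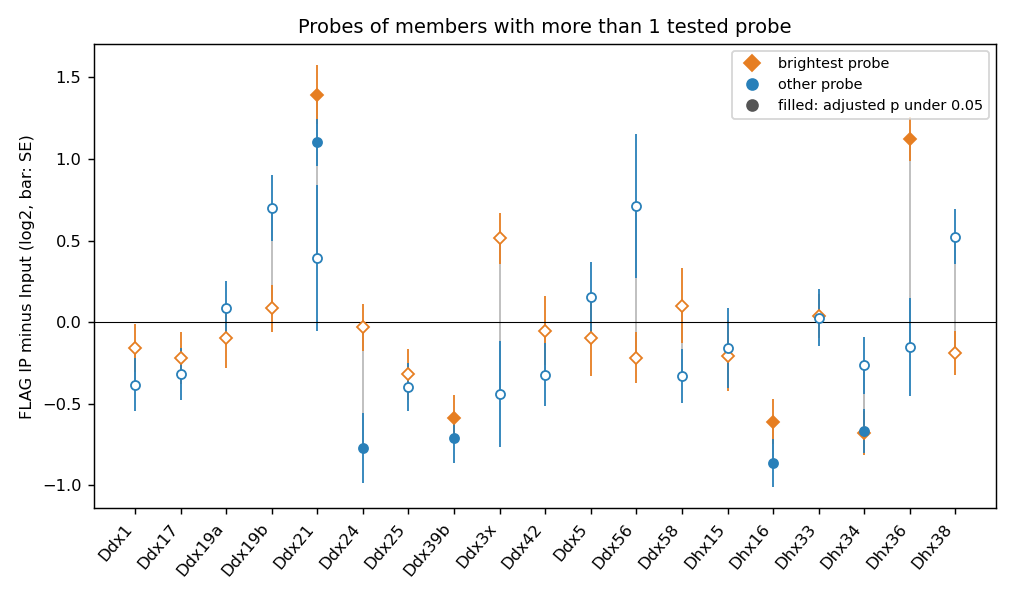
Change of each tested probe (y axis, FLAG IP minus Input, log2 signal, bars show SE) for the 19 members with more than 1 tested probe, with the brightest probe as a diamond, other probes as circles and filled symbols for an adjusted p under 0.05. Among the members whose probes lie far apart are Dhx36 (1.12 and −0.15), Ddx3x (0.51 and −0.44), Ddx56 (−0.22 and 0.71) and Ddx24 (−0.03 and −0.77). Those of Ddx39b and Dhx16 lie close together.

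Other RNA helicases of the same superfamilies had a median change near that of the members. Taken by brightest probe, 1 of 18 tested genes was higher, D1Pas1, and 4 were lower, with a median of −0.13. The 22.2% called lower is near the 21.3% of all tested features, and 15.8% of those were higher. A dimmer probe of Mov10l1 was called lower (−1.02 ± 0.16, adjusted p = 0.013 over all probes), while its brightest probe had −0.02. Snrnp200, the helicase that unwinds the U4/U6 snRNA duplex, fell by 0.83 ± 0.13 (adjusted p = 0.014), Skiv2l, of the complex that feeds mRNA to the cytoplasmic exosome, by 0.68 ± 0.14 (adjusted p = 0.024), and Aqr, an intron-binding helicase, by 0.53 ± 0.14 (adjusted p = 0.039, and 0.055 with the mean of its probes). Hfm1, a meiotic DNA helicase, fell by 0.80 ± 0.21 (adjusted p = 0.040), but had −0.12 under normexp background correction (adjusted p = 0.52). Without a filter on dim probes Hfm1 and Aqr were not called (adjusted p = 0.087 and 0.053). The translation initiation helicases Eif4a1 and Eif4a2 were not called, at −0.39 and 0.06.

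Among the partners of DEAD box proteins 3 of 22 tested genes were higher and 3 were lower by their brightest probes, with a median of −0.15. That is 13.6% in each direction, beside 15.8% higher and 21.3% lower over all tested features. A dimmer probe of Eif4b was called higher (0.82 ± 0.14, adjusted p = 0.015 over all probes). Nxf1, the mRNA export receptor, rose by 1.24 ± 0.13 (adjusted p = 0.0067), Eif4g1, the scaffold that holds eIF4A at the cap, by 0.78 ± 0.16 (adjusted p = 0.023) and Casc3, a core protein of the exon junction complex, by 0.51 ± 0.15 (adjusted p = 0.0497). Thoc1, of the THO export complex, fell by 1.15 ± 0.26 (adjusted p = 0.029), although its other probe had −0.12 (adjusted p = 0.61 over all probes). Eif4h, a cofactor of eIF4A, fell by 0.60 ± 0.14 (adjusted p = 0.033) and Gemin5, which binds snRNAs in the same complex as Ddx20, by 0.58 ± 0.13 (adjusted p = 0.030). Under quantile normalization Eif4h was not called (−0.34, adjusted p = 0.11), and under spike-in scaling Nxf1 was not called (0.27, adjusted p = 0.55) and Eif4g1 (−0.19) and Casc3 (−0.46) had negative changes. Without a filter on dim probes Casc3, Thoc1 and Eif4h were not called (adjusted p = 0.072, 0.074 and 0.053).

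G-patch proteins, which activate DEAH box helicases, held the largest change of the pathway lists. By their brightest probes, 3 of 21 tested genes were higher and 0 were lower, and the median was −0.07. A negative change with an unadjusted p under 0.05 in limma was found for 1 gene. The 14.3% called higher is near the 15.8% of all tested features, of which 21.3% were lower. Dimmer probes of Gpatch11 (−0.70, adjusted p = 0.041) and Gpatch4 (−0.52, adjusted p = 0.043) were called lower over all probes. Of the dimmer probes of Son, 1 was called higher (1.09, adjusted p = 0.0097) and the other had −0.60 (adjusted p = 0.076). Nkrf, a nucleolar G-patch protein that partners Dhx15 in human cells, had levels of 1.51 and 1.38 in FLAG IP, against −1.73 and −1.83 in Input. It rose by 3.23 ± 0.14 (adjusted p = 0.0038), a 9.36-fold increase, and its other probe gave 3.64 (adjusted p = 0.0063 over all probes). Gpatch2 rose by 1.61 ± 0.15 (adjusted p = 0.0056), a 3.06-fold increase, and Gpatch2l by 0.62 ± 0.13 (adjusted p = 0.025). Under spike-in scaling Gpatch2 had 0.64 (adjusted p = 0.15) and Gpatch2l −0.35. Dhx15 was not called on the same arrays, and the difference between their changes was not tested. Without either Input array in turn Nkrf, Gpatch2 and D1Pas1 were still called, whereas no other gene named from the pathway lists was (Nxf1 had an adjusted p of 0.053 without Input replicate 1 and 0.058 without Input replicate 2).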

How the data were processed

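Testis RNA of 2 FLAG IP and 2 Input samples was measured on 4 single-colour (Cy3) Agilent arrays of 1 slide, read in 1 scan per the file headers. Groups and replicate numbers come from the titles. A description field names embryonic day 14.5, while titles and characteristics give postnatal day 7, used here. The immunoprecipitation is not described in the labels.

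The deposited scanner files hold, per the file headers, background-subtracted processed intensity, raw median intensity and quality flags from Agilent Feature Extraction (9.5 in the submitters' processing notes). The deposited table holds the authors' log2 values. Set against the scanner files, every column equalled the log2 processed signal plus a shift of its own (within 0.01 for 99.6% of probes), with the 75th percentile at 9.76 and medians of 6.25 and 6.15 (FLAG IP 1 and 2) and 6.18 and 6.25 (Input 1 and 2), so its scale and centring are known.

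Control spots and 62 to 90 outlier spots per array were left out, and 0 spots were saturated. Log2 processed signals, scaled to the 75th percentile of each array, were averaged over spots of a probe. Accessions were matched without version to RefSeq transcripts (GRCm38.p6), naming 55.7% of 41174 probes. The array was designed on another build, so no coordinates are given, and probe sequences are not used here. The brightest probe stood for a gene. A feature was tested (21594 of 33390) where both arrays of either group were well above background, with limma 3.58.1 in R 4.3.3 (lmFit, eBayes, no covariates, two-sided, Benjamini-Hochberg over all tested features, called under 0.05). All adjusted p-values come from limma. The fit was tested on simulated data.

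The members and lists were chosen with earlier results of these data known. Per-array values are given for up to 10 members called in each direction and for Ddx3x, Ddx3y, Ddx5, Ddx17, Ddx25, Ddx39b, Ddx58, Dhx9, Dhx15, Dhx29, Dhx36 and Dhx58. Of the 3 pathway lists, up to 4 genes called in each direction are named. D1Pas1 levels, the Nkrf and Dhx15 pair, Eif4a1 and Eif4a2 were singled out after their values were seen. So were the dimmer probes of Mov10l1, Eif4a1, Eif4a2, Eif4b, Gpatch4, Gpatch11 and Son. Lists get counts and medians and no test. Alternatives were other background corrections, scalings, filters, probe rules, a replicate block, another moderation, the deposited table and leaving out each array. A slide block was not run, since 1 slide and 1 scan hold all arrays.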

Additional observations from a re-analysis of the deposited data

How the results depend on the processing

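The 12 called members kept their direction under all 15 alternatives except spike-in scaling, and all 12 stayed called under normexp background correction, median scaling, the filter on all 4 arrays, trend and robust moderation, the authors' deposited table and without FLAG IP replicate 2. Spike-in scaling called 588 features higher and 13735 lower (4.11% of calls higher, against 42.6% with 75th percentile scaling), with 0 Ddx and 0 Dhx genes higher, 24 Ddx and 13 Dhx genes lower and medians of −1.07 and −1.12. Changes that were positive with 75th percentile scaling were negative there for Ddx11 (−0.37), Ddx3x (−0.46), Dhx40 (−0.59), Ddx19b (−0.89), Ddx28 (−0.26), Ddx31 (−0.95), Ddx47 (−0.95), Ddx52 (−0.93), Ddx58 (−0.87), Dhx33 (−0.93), Dhx58 (−0.30), Gpatch2l (−0.35), Eif4g1 (−0.19) and Casc3 (−0.46), of which Ddx47 and Dhx33 were also negative under normexp background correction. The scale itself lowers all changes alike. With no filter on dim probes 3020 features were lower, 2 Ddx genes were lower and 1 Dhx gene was higher; the cause was not tested. With the filter on all 4 arrays, and with trend and robust moderation, 5 Ddx genes were higher. The median of Dhx was −0.081 under quantile normalization and −0.11 with the mean of a gene's probes, where 1 Dhx gene was higher. Leaving out each array in turn gave 977 to 3725 features higher and 552 to 4573 lower, 0 to 3 Ddx genes higher and 0 to 4 lower, 0 to 2 Dhx genes higher and 0 to 3 lower, and medians of −0.22 to −0.10 for Ddx and −0.18 to −0.12 for Dhx. The lone array of a group was then assumed to vary like the other group.

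The replicate numbers were not taken as pairs, since the labels give no shared litter or batch and deviations of same-numbered arrays correlated at −0.38 over features. With the replicate number as a block, 2269 features were higher and 2290 lower, 0 Ddx and 0 Dhx genes were lower, 1 Dhx gene was higher, and 3 of the 12 members stayed called (Ddx21, Ddx3y and Dhx36). The crossed pairing as a block, chosen after seeing the data, called 4321 features higher and 5 Ddx genes higher. A slide or scan block was not run because 1 slide and 1 scan hold all arrays. With 2 samples per group an exact permutation test of a single gene cannot go below p = 0.33, so each call rests on limma's pooled estimate of the spread.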
